A study of Mus musculus with 6 samples.

Results

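The mitochondrial genome is represented in the deposited table by 37 genes whose symbols start with mt-, out of 55414 genes. All of them were taken: 13 mRNAs, 2 ribosomal RNAs (mt-Rnr1 for 12S and mt-Rnr2 for 16S) and 22 transfer RNAs. RNA was sequenced from the hippocampus of mice in 6 libraries, 3 from a group labelled CerM and 3 from a vehicle group, numbered 1 to 3 in each. The labels do not spell out CerM, and dose, duration, strain and age are not given in the sources used here. The series title places the study in gut-derived ceramides, corticosterone-induced depression and mitochondrial function. The titles call the libraries biological replicates without saying that each came from a separate mouse, and a p-value here speaks only of the spread among libraries.

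Mitochondrial DNA is a small circle with a heavy and a light strand, both transcribed by a dedicated polymerase into long precursors that cover most of the circle. The mRNAs and rRNAs are released largely by cutting out the tRNAs that lie between them, and most mRNAs then receive a short poly(A) tail. Because the genes share precursors, their unequal steady levels come mainly from processing and stability. The proteins they encode are core subunits of complexes I, III and IV and of ATP synthase, and are assembled with many nuclear-encoded subunits. Hippocampal neurons depend heavily on this respiratory machinery.

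The main feature of these rows is that 5 of the 13 mRNAs had nearly all, or most, of their TPM listed under another name. TPM, the unit of the table, scales a row's reads for transcript length and library total, to put different genes on a common scale. Whether the length scaling holds for the shortest rows was not tested, so the ranks and proportions below are those of the TPM values. Over the 6 libraries, copies in the nuclear genome with near-identical sequence held 98.5% of the TPM summed over mt-Co2 and its copy, 92.0% for mt-Nd4l and 86.6% for mt-Nd3. For mt-Co3 the share was 99.998%, and mt-Atp6 was listed at 0 in every library while its copy averaged 7247 TPM. Such copies, known as nuclear mitochondrial DNA segments, arise when mitochondrial DNA is inserted into a chromosome.

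Nuclear copies were found by aligning the reference transcripts of the mt- genes to all reference transcripts (GENCODE M21, an annotation of GRCm38, an older build than the GRCm39 named in the submitters' processing notes). A copy was a transcript at 98% identity or more over 80% or more of its length. There were 7, each matching a different mRNA. In the GRCm38 annotation they lie side by side in one block with no other gene between them, and they follow the order of their partners on mitochondrial DNA: Gm29216 for part of mt-Co1, Gm28661 for mt-Co2, Gm10925 for mt-Atp6, Gm28437 for mt-Co3, Gm28438 for mt-Nd3, Gm10222 for mt-Nd4l and Gm28439 for part of mt-Nd4. Gm28439 averaged under the TPM level set for naming and is named after its values were seen.

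The sequences show how little separates the annotated transcripts of a gene and its copy. The last bases of 3 mt- genes and their copies are printed below from the GENCODE M21 transcripts, 5′ to 3′, in lower case. Capitals mark the bases that the mt- gene has and the copy's transcript lacks.
mt-Co2: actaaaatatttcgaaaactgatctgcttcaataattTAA
Gm28661: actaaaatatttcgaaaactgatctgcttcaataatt
mt-Atp6: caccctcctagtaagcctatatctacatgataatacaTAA
Gm10925: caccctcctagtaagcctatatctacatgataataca
mt-Nd4l: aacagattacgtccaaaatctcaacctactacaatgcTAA
Gm10222: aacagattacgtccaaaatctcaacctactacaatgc
In each of these 3 pairs the copy's transcript was identical to the gene over its whole length and ended 3 bases earlier. The capitals thus mark where an annotated transcript ends, not a known difference in the chromosome, whose sequence was not examined. Gm10222 overlaps its neighbor Gm28439 (a gap of −4 bases), a transcript identical to part of mt-Nd4, so the block continues past the end of Gm10222. Gm28437 was likewise identical to mt-Co3 over 783 of its 784 bases.

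The mt-Nd3 pair differed in 1 base, T3C, counted from 1 at the first base of mt-Nd3 with the mt-Nd3 base first. The first 40 bases of both are given, with that base in capitals.
mt-Nd3: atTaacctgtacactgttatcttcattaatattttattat
Gm28438: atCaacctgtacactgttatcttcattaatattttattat
The substitution is the third base of the first codon. Gm28438 also ended 3 bases before mt-Nd3.

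The share of a gene's 100-base windows absent from its copy's annotated transcript was computed from the reference transcripts. Chromosome sequence beyond the ends of these transcripts was not included. It was 0.146% (1 of 685 windows) for mt-Co3, 0.513% (3 of 585) for mt-Co2, 0.515% (3 of 582) for mt-Atp6, 1.52% (3 of 198) for mt-Nd4l and 2.41% (6 of 249) for mt-Nd3. The partial copies left far more: 39.2% for mt-Nd4, whose copy covers 63.6% of it, and 73.7% for mt-Co1, whose copy covers 31.3% of it and carries 1 substitution, A1066T. A window length of 100 bases was chosen here, since the read length is not given in the sources used here.

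Most TPM lay on the copy's side for all 5 mRNAs whose copy covers 98.99% to 99.87% of their length, and on the mt- side for both mRNAs with a partial copy. mt-Nd4 held all of its TPM, with Gm28439 at 0 in all 6 libraries. mt-Co1 held 99.9% of its sum, with Gm29216 at 31.5, 34.5 and 23.6 TPM in CerM 1 to 3 and 94.8, 13.8 and 21.1 in vehicle 1 to 3. How the authors' software divided reads between these rows is not given in the sources used here, and its part was not tested. The 6 other mRNAs had no copy under the rule among annotated transcripts, and the genome sequence itself was not searched.

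**Figure D1:**
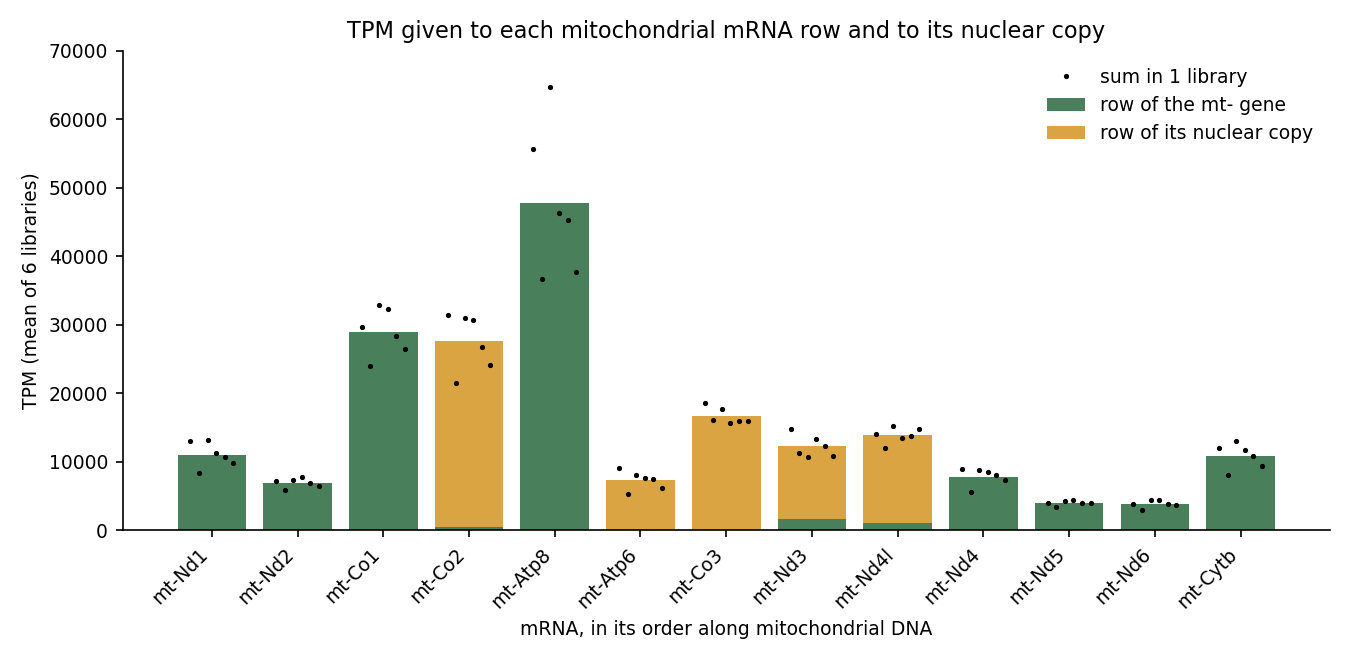
Mean TPM over 6 libraries (y axis) of each mitochondrial mRNA in its order along mitochondrial DNA (x axis), split into the row of the mt- gene and the row of its nuclear copy, with points for the sum in each library. The bars of mt-Co2, mt-Atp6, mt-Co3, mt-Nd3 and mt-Nd4l consist mostly or wholly of the copy.

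The part left on the mt- row varied between libraries. The mt-Nd3 row kept 16.3%, 10.3% and 10.9% of its sum in CerM 1 to 3 and 15.8%, 14.5% and 10.99% in vehicle 1 to 3. The mt-Nd4l row kept 7.73%, 4.83% and 10.3% in CerM and 6.56%, 8.66% and 9.17% in vehicle. Within CerM, the coefficient of variation (SD over mean) was 45.1% for the mt-Nd3 row and 17.7% with the copy added, and 45.9% against 12.1% for mt-Nd4l. Within vehicle it was 27.5% against 10.3% for mt-Nd3 and 20.8% against 4.75% for mt-Nd4l, so both sums were steadier than their rows. For mt-Co2 it went from 33.4% to 19.97% in CerM on adding the copy, but from 5.21% to 12.03% in vehicle. The values below add each copy to its gene unless a row as deposited is named.

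The rank order of the mRNAs depends on this step. As deposited, mt-Co2 ranked 11 of 13, mt-Co3 ranked 12 and mt-Atp6 ranked 13. With copies added they ranked 3, 4 and 10. mt-Co2, with the copper center that receives electrons from cytochrome c, then stood next to mt-Co1 as its partner in the catalytic core of complex IV.

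Among the complex IV subunits, mt-Co1 had 29617, 24011 and 32833 TPM in CerM 1 to 3 and 32309, 28400 and 26516 in vehicle 1 to 3. mt-Co2 had 31391, 21503 and 30921 TPM in CerM and 30649, 26784 and 24146 in vehicle. In both, CerM 2 was the lowest library and the groups overlapped. mt-Co1 exceeded mt-Co2 in 5 of 6 libraries, with means only 1.05-fold apart, so their order is within the spread.

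mt-Co3, the remaining complex IV subunit of mitochondrial origin, had 18498, 16078 and 17727 TPM in CerM and 15711, 15962 and 15935 in vehicle. Every CerM library lay above every vehicle library, the smallest gap being between CerM 2 and vehicle 2. This was 1 of the 13 mRNAs whose groups did not overlap. Over all 14916 tested genes, 7.30% had groups apart in either direction and 3.26% were apart with CerM higher. The log2 fold change on the log2(TPM + 1) scale was 0.13 ± 0.09 (SE), with a limma adjusted p of 0.990. Almost all of this sum is the row of Gm28437, since the mt-Co3 row held 0.13 to 0.36 TPM.

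ATP synthase has 2 subunits from mitochondrial DNA, both in the membrane sector: mt-Atp6, which forms the proton path, and mt-Atp8, a small partner. mt-Atp8 was the most abundant row of the whole table in all 6 libraries, at 55601, 36694 and 64751 TPM in CerM and 46286, 45264 and 37724 in vehicle. CerM 1 and CerM 3 lay above the vehicle libraries and CerM 2 below them. mt-Atp6 had 9069, 5289 and 8037 TPM in CerM and 7555, 7400 and 6133 in vehicle, all of it listed under Gm10925.

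These 2 genes overlap on mitochondrial DNA and are carried by a single mature mRNA. The end of mt-Atp8 is printed with the 43 bases it shares with the start of mt-Atp6 in capitals.
mt-Atp8 end: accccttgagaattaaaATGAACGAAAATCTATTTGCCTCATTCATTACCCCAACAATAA
mt-Atp8 was listed 6.13-fold, 6.94-fold and 8.06-fold above mt-Atp6 in CerM 1 to 3 and 6.13-fold, 6.12-fold and 6.15-fold in vehicle 1 to 3. The ratio was nearly constant in CerM 1 and the 3 vehicle libraries and larger in CerM 2 and CerM 3 (exact permutation p = 0.2, two-sided, 3 against 3). The difference of group means, 0.91, was 0.40 without CerM 3 and 1.37 without CerM 1. mt-Atp8 is the shortest of the 13 mRNAs, at 204 bases against 681 for mt-Atp6, and the 7 annotated nuclear copies include none for mt-Atp8. The search covered annotated transcripts only. Between Gm28661 and Gm10925 lie 233 bases without an annotated gene, and whether they match mt-Atp8 was not tested. The part of length and of copies in this ratio was not tested.

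Complex I takes 7 subunits from mitochondrial DNA. mt-Nd4l and mt-Nd4 form the other overlapping pair on a shared mRNA. The end of mt-Nd4l is shown with the 7 bases shared with mt-Nd4 in capitals.
mt-Nd4l end: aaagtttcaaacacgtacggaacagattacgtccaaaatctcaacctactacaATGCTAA
mt-Nd4l had 14052, 11918 and 15182 TPM in CerM and 13502, 13798 and 14774 in vehicle. mt-Nd4 had 8866, 5561 and 8710 TPM in CerM and 8465, 8001 and 7323 in vehicle. The ratio of mt-Nd4l to mt-Nd4 ran from 1.58 in CerM 1 and 1.60 in vehicle 1 to 2.14 in CerM 2, and it overlapped between groups (exact permutation p = 0.8). The part of transcript length in this ratio was not tested.

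Of the other complex I mRNAs, mt-Nd3 had 14749, 11315 and 10738 TPM in CerM and 13324, 12345 and 10838 in vehicle. mt-Nd1 had 13004, 8294 and 13115 TPM in CerM and 11327, 10705 and 9767 in vehicle. CerM 2 was the lowest library for mt-Nd1, as for mt-Nd4, whereas CerM 3 was the lowest for mt-Nd3. mt-Nd2 ran from 5905 TPM in CerM 2 to 7708 in vehicle 1, and mt-Nd5 from 3308 in CerM 2 to 4402 in vehicle 1. All of these groups overlapped.

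mt-Nd6, a further complex I subunit, is the only mitochondrial mRNA read from the opposite strand to the others. It had 3804, 3000 and 4445 TPM in CerM and 4339, 3853 and 3658 in vehicle, the lowest mean of the 13. Its level nearly equalled that of mt-Nd5, its neighbor on the opposite side, with a ratio of mt-Nd6 to mt-Nd5 between 0.907 in CerM 2 and 1.06 in CerM 3 (exact permutation p = 1.0). The genes overlap by 14 bases and run in opposite directions. Whether reads were counted by strand is not given in the sources used here, so reads from mt-Nd6 and from antisense RNA of the same stretch cannot be told apart.

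mt-Cytb, the complex III subunit that carries the quinone sites, had 11986, 8095 and 13044 TPM in CerM and 11697, 10881 and 9398 in vehicle. Again CerM 2 was lowest and CerM 3 highest. Read by mean level, the order was mt-Atp8, mt-Co1, mt-Co2, mt-Co3, mt-Nd4l, mt-Nd3, mt-Nd1, mt-Cytb, mt-Nd4, mt-Atp6, mt-Nd2, mt-Nd5 and mt-Nd6. Steps that held in all 6 libraries were those from mt-Atp8 to mt-Co1, mt-Co2 to mt-Co3, mt-Co3 to mt-Nd4l, mt-Cytb to mt-Nd4 and mt-Nd2 to mt-Nd5. The closest neighbors were mt-Nd1 and mt-Cytb (1.02-fold, in this order in 4 of 6 libraries) and mt-Atp6 and mt-Nd2 (1.05-fold, 3 of 6).

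**Figure D2:**
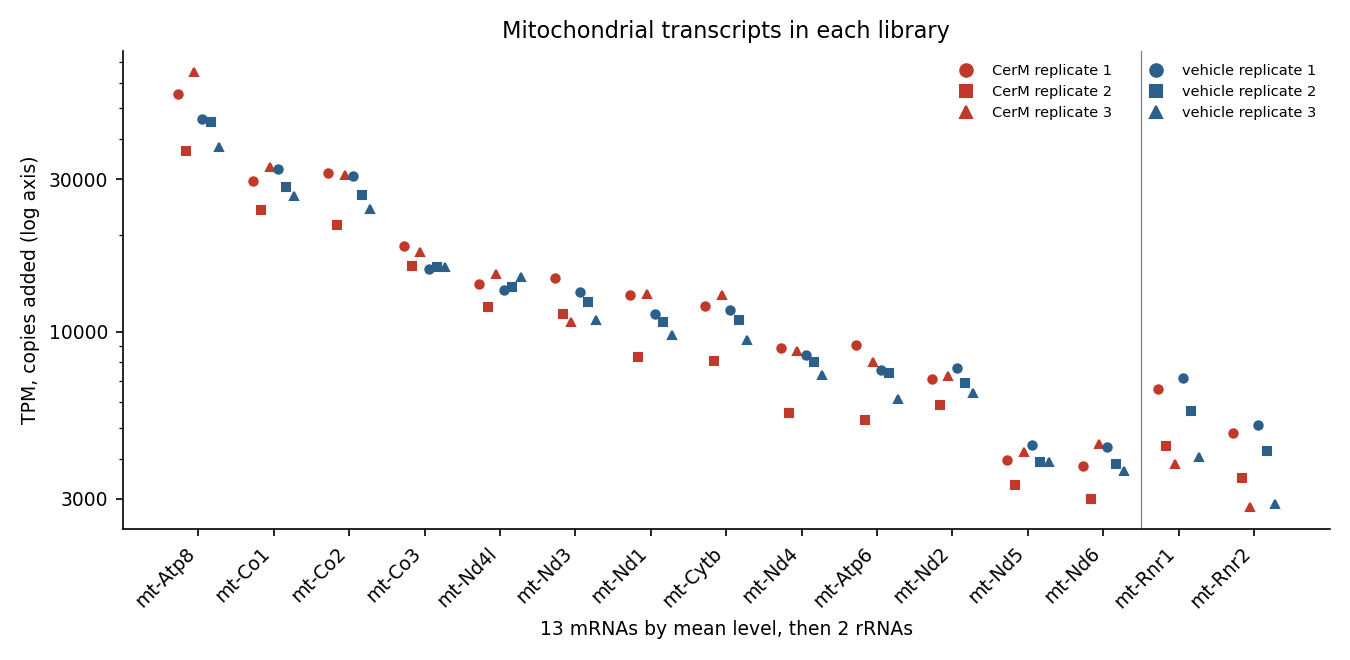
TPM with nuclear copies added (y axis, log scale) of the 13 mRNAs ordered by mean level and the 2 rRNAs (x axis), 1 marker per library, red for CerM and blue for vehicle. CerM 2 (red squares) is the lowest library for most mRNAs, and the 2 rRNAs order the libraries differently.

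The rRNAs stood near the levels of the lowest mRNAs and did not order the libraries as the mRNAs did. mt-Rnr1, the RNA of the small mitochondrial ribosomal subunit, had 6621, 4382 and 3835 TPM in CerM and 7164, 5629 and 4049 in vehicle. mt-Rnr2, that of the large subunit, had 4825, 3474 and 2813 TPM in CerM and 5094, 4236 and 2893 in vehicle. Both were highest in vehicle 1, CerM 1 and vehicle 2, in that order, and lowest in CerM 3. mt-Rnr1 stood above mt-Rnr2 in every library, with a ratio between 1.26 in CerM 2 and 1.41 in vehicle 1.

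Against the mRNA sum, the rRNAs came to 5.16%, 4.88% and 2.88% in CerM 1 to 3 and 5.91%, 5.08% and 3.93% in vehicle 1 to 3. CerM 3 thus combined the most mRNA with the least rRNA (difference of group means −0.67 percentage points, exact permutation p = 0.6). Without CerM 3 the difference was 0.05. The mt-Nd3 row as deposited was highest in the same 3 libraries as the rRNAs, at 2404 TPM in CerM 1, 2109 in vehicle 1 and 1788 in vehicle 2, against 1164 to 1191 in the others. Whether libraries were selected for poly(A) tails is not given in the sources used here.

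All 22 tRNAs were listed at 0 in all 6 libraries. Their reference lengths are 59 to 75 bases. Of 780 other genes in the table with a reference length of at most 75 bases, 1 had a value above 0 in any library, with a mean of 1.87 TPM. The table therefore carries almost no information on RNAs of this size, mitochondrial or not.

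As a share of all TPM, the 13 mRNAs with copies made up 22.3%, 16.2% and 23.2% in CerM 1 to 3 and 20.8%, 19.5% and 17.7% in vehicle 1 to 3. The group means were 20.6% ± 3.83 and 19.4% ± 1.56 (SD, n = 3 each), 1.21 percentage points apart (two-sided exact permutation p = 0.7). The CerM libraries included both the highest and the lowest of the 6. Without CerM 3 the difference was −0.12, and without CerM 2 it was 3.40. Without CerM 1 or vehicle 3 it shrank to 0.34 and 0.39, and without vehicle 1 it was 1.95.

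The copies alone took 6.44% to 8.45% of TPM, and they made up 34.4% to 39.8% of the mitochondrial mRNA sum. The 2 rRNAs took 1.15%, 0.79% and 0.67% in CerM and 1.23%, 0.99% and 0.70% in vehicle (difference −0.10 percentage points, exact permutation p = 0.7). That difference turned to 0.03 without vehicle 1 and was −0.003 without CerM 3. It was −0.24 without CerM 1 and −0.24 without vehicle 3, and −0.06 without CerM 2. Of the 10 highest rows of a library, 8 to 10 were mt- genes or their copies.

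**Figure D3:**
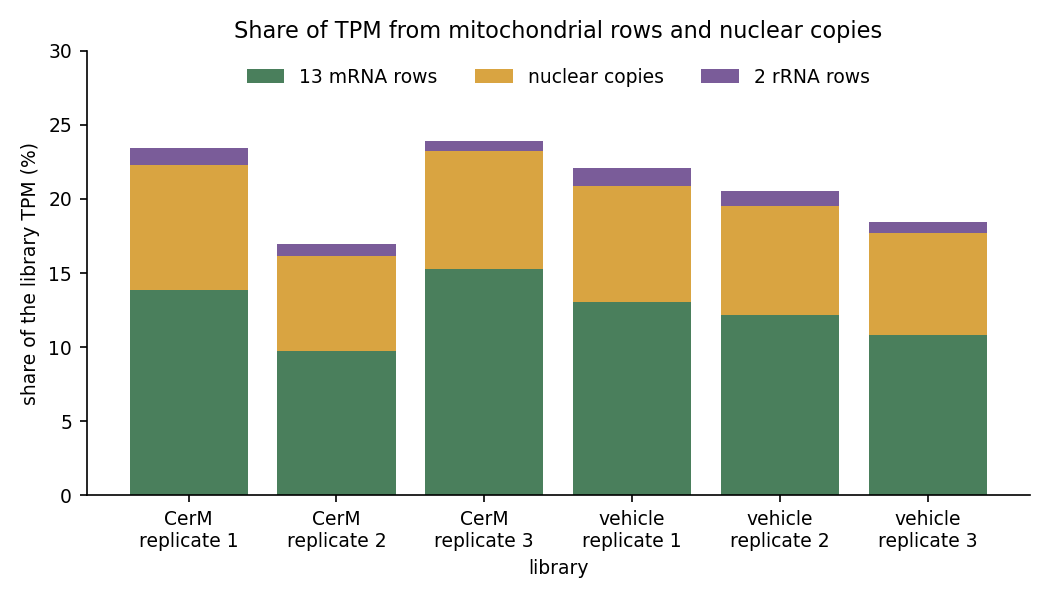
Share of each library's TPM (y axis, percent) in the 13 mRNA rows, the nuclear copies and the 2 rRNA rows, stacked for each of the 6 libraries (x axis). The totals run from 17.0% in CerM 2 to 23.9% in CerM 3, with the vehicle libraries between them at 18.4% to 22.1%.

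Markers of other tissues differed between the libraries that set these shares. Summed choroid plexus markers stood at 9316 TPM in CerM 1, 10967 in CerM 3 and 15734 in vehicle 3, against 253 to 308 in the other 3. Nearly all of this was 1 gene, Ttr, at 9123, 10713 and 15417 TPM in those libraries and 244 to 284 in the others. All 8 markers were above 0 in each library. These sets were formed after the values were seen. Among the 3 libraries with high markers the mRNA share was 22.8% in CerM (2 libraries) and 17.7% in vehicle (1 library). Among the 3 with low markers it was 16.2% (1 library) and 20.2% (2 libraries). Each set has 1 library on one side, among them CerM 2 with the lowest share of all 6, so nothing is read from these differences. Adipocyte markers summed to 854 TPM in CerM 3 and 2.89 to 4.56 elsewhere, and the brown-fat gene Ucp1 was at 0 in CerM 3. Neocortex markers were highest in vehicle 1, at 340 TPM against 159 to 170. The same library was lowest in hippocampal neuron markers, at 296 TPM against 442 to 504, and in oligodendrocyte markers, at 3807 against 5834 to 6953. All 8 hippocampal neuron markers were above 0 in each library. The summed nuclear-retained RNAs taken as a sign of RNA quality were highest in CerM 2, at 550 TPM against 186 to 429. The part of these tissues and of RNA quality in the shares was not tested.

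No transcript of the mitochondrial genome passed the test between CerM and vehicle. Genes entered the limma fit at a mean of 1 TPM or more, which took 11 mRNAs and both rRNAs and left out mt-Co3, mt-Atp6 and the tRNAs. Limma called 0 of 14916 genes (0%) at an adjusted p below 0.05, and 402 had an unadjusted p below 0.05. None of the 13 tested mt- rows reached an unadjusted 0.05 (smallest 0.251, for mt-Co2), and their adjusted p ran from 0.989 to 0.994. As deposited, 3 mRNA rows lay above 0 and 8 below, and their median log2 fold change was −0.07. The median over all tested genes was 0.03.

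With copies added, 7 of 13 mRNAs lay above 0 and 6 below, with a median of 0.00. Adding copies can move only the mRNAs that have one, and among the tested rows the moves were largest in mt-Co2, mt-Nd4l and mt-Nd3. mt-Co2 went from −0.26 ± 0.21 (SE) to 0.02 ± 0.17, mt-Nd4l from −0.18 ± 0.34 to −0.04 ± 0.11 and mt-Nd3 from −0.15 ± 0.32 to 0.00 ± 0.14. mt-Atp8 had the largest fold change, 0.25 with a 95% confidence interval of −0.24 to 0.74. It was 0.07 without CerM 3, 0.15 without vehicle 3 and 0.48 without CerM 2, and 0 with quantile scaling, since mt-Atp8 is the top row of every library. For mt-Co1 the interval was −0.35 to 0.31, and for mt-Cytb −0.41 to 0.46. Over the 13 mRNAs the interval ends ran from −0.50 for mt-Nd4 to 0.74 for mt-Atp8, so a 2-fold difference of TPM + 1 lay outside every one of them. The rRNAs had wider intervals, −0.79 to 0.42 for mt-Rnr1 and −0.73 to 0.46 for mt-Rnr2.

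**Figure D4:**
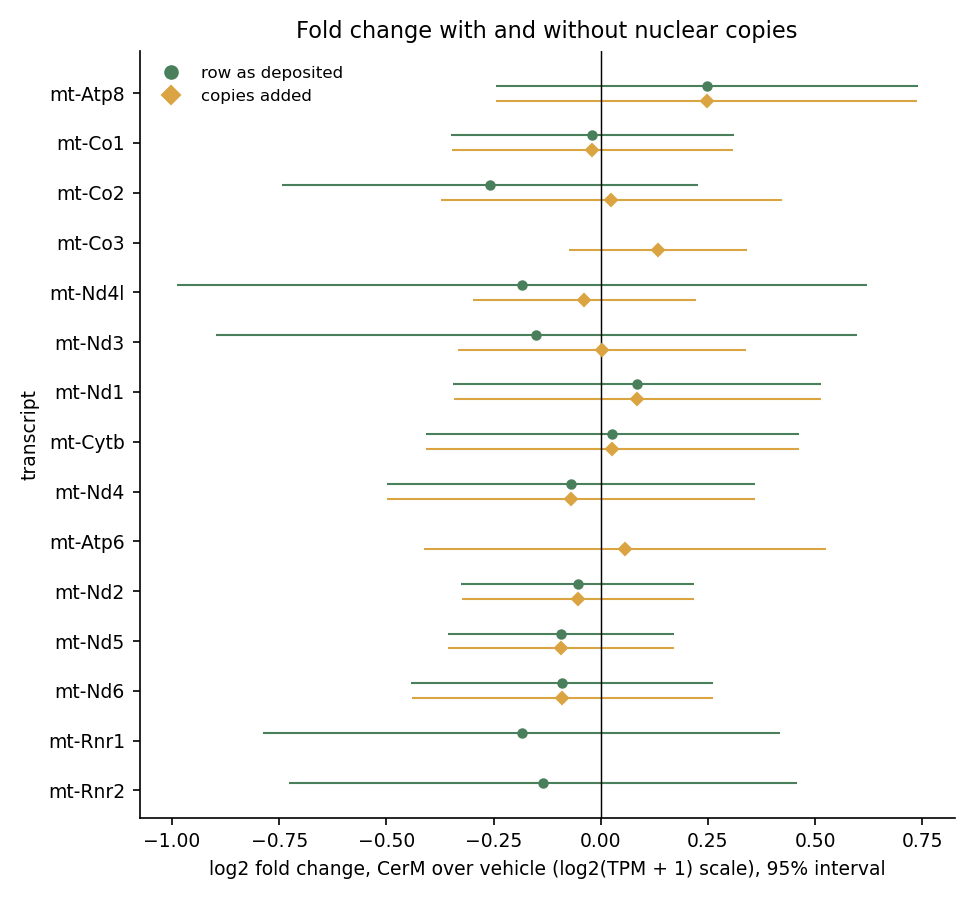
Log2 fold change of CerM over vehicle with its 95% interval (x axis) for each mitochondrial transcript (y axis), for the row as deposited (circles) and with nuclear copies added (diamonds). Every interval includes 0, and those of mt-Co2, mt-Nd3 and mt-Nd4l narrow and move toward 0 when the copy is added.

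The proportions of the mRNAs within their sum were compared next. In percent of the 13-mRNA sum, mt-Atp8 took 21.4% to 28.0%, mt-Co1 13.4% to 15.6% and mt-Co2 13.4% to 14.8% over the 6 libraries. mt-Nd3 ran from 4.65% in CerM 3 to 7.03% in CerM 2, mt-Co3 from 7.58% to 9.99% and mt-Nd4l from 6.34% to 8.37%. The 7 complex I mRNAs together held 30.02%, the 3 of complex IV 36.8%, the 2 of ATP synthase 27.7% and mt-Cytb 5.46%. For mt-Atp8 the proportion was 25.3% ± 2.63 in CerM and 22.3% ± 0.97 in vehicle (exact permutation p = 0.2). The difference of 2.97 percentage points was 1.60 without CerM 3 and 4.22 without CerM 2.

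Of the 13 proportions, 2 had groups that did not overlap, both lower in CerM. For TPM over all 14916 tested genes, groups were apart in 7.30% in either direction and in 4.04% with CerM lower. Proportions of the same sum also depend on each other. That of mt-Atp8 was 2.97 percentage points higher in CerM, and its part in these 2 was not tested. mt-Nd4 held 3.999%, 3.45% and 3.77% in CerM and 4.08%, 4.12% and 4.15% in vehicle. mt-Nd6 held 1.72%, 1.86% and 1.92% in CerM and 2.09%, 1.98% and 2.07% in vehicle. Each had an exact permutation p of 0.1, the smallest that 3 against 3 libraries allow, and neither was adjusted for the 13 proportions. The gaps between the nearest libraries were 0.08 percentage points for mt-Nd4 and 0.06 for mt-Nd6. Without CerM 2 the difference for mt-Nd4 shrank from −0.38 to −0.23 percentage points.

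Nuclear genes for the same complexes lay mostly below 0. Chosen by symbol alone, 40 nuclear genes with complex I symbols were tested and all 40 lay below 0 (median log2 fold change −0.15, 0 called, 11 with groups apart). They include Ndufa4, Ndufa4l2 and Ndufb4c, and the complex IV symbols include Cox7a2l. Whether each gene, here and in the other complexes, is a distinct subunit of the complex named was not checked. Below 0 were also 9 of 9 genes in complex III (median −0.18, 4 apart), 12 of 16 in complex IV (−0.12, 4 apart) and 17 of 17 in ATP synthase (−0.15, 8 apart). Of all 14916 tested genes 6143 lay below 0, and in 4.04% the groups were apart with CerM lower. Under the 3 other scalings 40 of 40, 9 of 9, 11 to 13 of 16 and 13 to 17 of 17 lay below 0, in the same order. Without vehicle 1 the median of complex IV was −0.03. Summed neuron markers were also lower in every CerM library, at 3552, 3603 and 3558 TPM against 4290, 3774 and 3685 in vehicle, and their part in the subunit values was not tested. The members with the smallest p were Ndufb4c at −0.41 ± 0.10 (SE), Uqcr11 at −0.24 ± 0.08, Cox7a2 at −0.31 ± 0.09 and Atp5md at −0.32 ± 0.09, each with a limma adjusted p of 0.989.

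The ratio of mitochondrial to nuclear TPM per complex does not depend on the library total. For complex I it was 6.34, 4.94 and 6.82 in CerM 1 to 3 and 5.41, 5.32 and 5.27 in vehicle 1 to 3. For complex III it was 3.31, 2.34 and 3.72 against 2.82, 2.80 and 2.40. For complex IV it was 10.2, 8.71 and 12.4 against 8.83, 8.89 and 9.26. For ATP synthase it was 6.40, 4.31 and 7.59 against 4.75, 4.85 and 4.06. CerM 1 and CerM 3 lay above all vehicle libraries in each complex, while CerM 2 lay below all of them in complexes I, III and IV and below vehicle 1 and 2 in ATP synthase.

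The ratio of group means was 1.13 in complex I, 1.17 in complex III, 1.16 in complex IV and 1.34 in ATP synthase. The exact permutation p was 0.4, 0.4, 0.4 and 0.3. Over the 17 such tests of library values, every Benjamini-Hochberg adjusted p was 0.85 or more. Without CerM 3 the differences shrank from 0.70 to 0.31, 0.45 to 0.15, 1.43 to 0.46 and 1.55 to 0.80, in the order above. Without CerM 2 they grew to 1.25, 0.84, 2.28 and 2.44. With the nuclear copies left out, complex IV had a difference of 0.44 and complex I one of 0.42. ATP synthase kept a difference of 1.43, and complex III, which has no copy, stayed at 0.45.

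**Figure D5:**
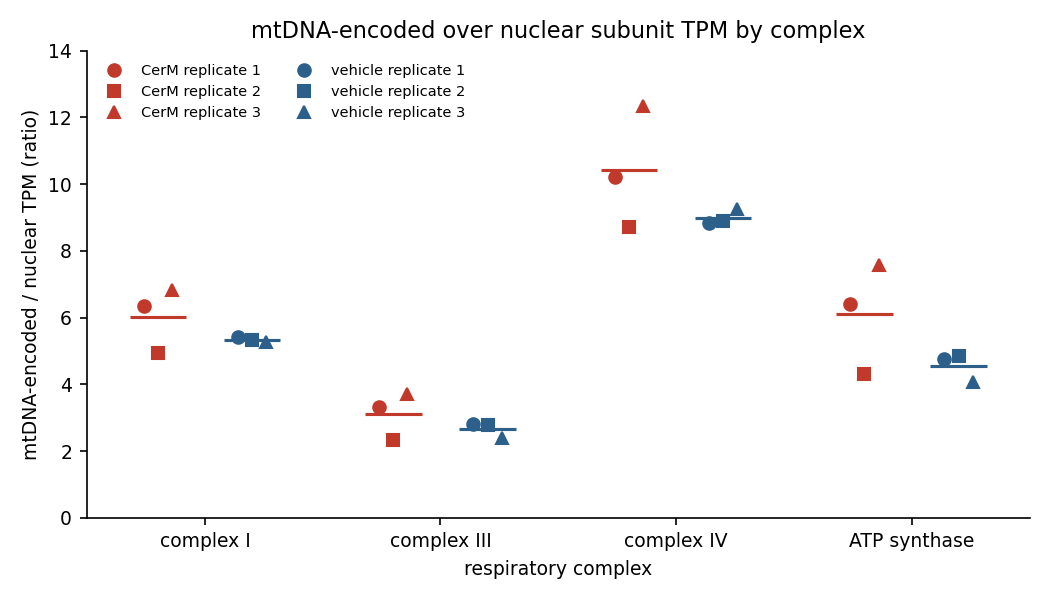
Ratio of summed mtDNA-encoded TPM, copies added, to summed nuclear TPM (y axis) for 4 respiratory complexes (x axis), 1 marker per library with bars at the group means. The CerM libraries spread more widely than the vehicle libraries in every complex, and CerM 2 is the lowest CerM library throughout.

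Nuclear genes that copy, transcribe and process mitochondrial nucleic acid showed no called gene. Of 20 tested genes for replication and packaging of mitochondrial DNA, 12 lay above 0 and 8 below (median 0.02). Tfam, which packages the DNA and starts transcription, had 40.5, 36.4 and 42.3 TPM in CerM and 39.8, 40.3 and 38.3 in vehicle. Lig3, the mitochondrial DNA ligase, had the smallest p of that list at 0.54 ± 0.19 (limma adjusted p = 0.989). Of 12 genes for transcription, 6 lay on each side (median −0.01), with 1 gene apart above and 4 below (3.26% and 4.04% of all tested genes). Polrmt, the mitochondrial RNA polymerase, was at 0.10 ± 0.11. Mterf2, a factor of the mitochondrial termination factor family, had 13.2, 10.6 and 13.5 TPM in CerM and 14.4, 15.4 and 17.8 in vehicle, every CerM library being lower (−0.33 ± 0.14, adjusted p = 0.989).

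Of 39 genes for RNA processing, tailing and stability, 23 lay above 0 and 16 below (median 0.02). Lrpprc and Slirp, which together stabilize mitochondrial mRNAs, were at −0.00 ± 0.10 and 0.03 ± 0.29. Mtpap, the mitochondrial poly(A) polymerase, was at −0.03 ± 0.11. Trmt5, a tRNA methyltransferase, had the smallest p, with 7.14 to 7.97 TPM in CerM and 8.62 to 10.1 in vehicle (−0.28 ± 0.12, limma adjusted p = 0.989). It was the 1 gene of the 39 with groups apart, where 4.04% of all tested genes were apart with CerM lower. Of 11 regulators of biogenesis 8 lay above 0 (median 0.10), with Ppargc1a at 0.11 ± 0.13. The deacetylase Sirt1 had the smallest p, at 4.88 to 4.93 TPM in CerM against 3.51 to 4.63 in vehicle (0.28 ± 0.15, limma adjusted p = 0.989). Sirt1 was the 1 gene of the 11 with groups apart, where 3.26% of all tested genes were apart with CerM higher. Of 3 tested sensors of nucleic acid or their adaptors, Mavs, the adaptor on the mitochondrial surface, had the smallest p, at 0.13 ± 0.21.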

How the data were processed

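The authors deposited TPM values (transcript abundance scaled for length and library total) per gene for 6 mouse hippocampus libraries, with totals of 993379 to 995403. Per the submitters' processing notes, HISAT2, StringTie, RSEM and GRCm39 were used, without roles or versions. Per the labels' protocols, TRIzol RNA was cleared of DNA with DNase I before TruSeq library preparation. TPM keeps no depth, so read numbers are unknown and no count test was run.

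Genes with a mean of at least 1 TPM entered a limma fit (version 3.58.1, R 4.3.3) of log2(TPM + 1) with a variance trend. Tests were two-sided, with Benjamini-Hochberg adjustment over all tested genes, and fold changes understate those of low genes. For single values per library, exact permutation tests were used, and 3 against 3 cannot give a two-sided p below 0.1. Copies were found with blastn 2.17.0. The fit was tested on simulated data. Other software was matplotlib 3.10.9, scipy 1.17.1, pandas 2.3.3 and numpy 2.4.6 under Python 3.11.15.

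All mt- genes are members. From each nuclear list the text names the gene with the smallest p, and 6 further genes were fixed by name. Members and lists were chosen with earlier results of these data known. Alternatives changed pseudocount, TPM minimum, scaling, variance model, block, copy rule and library. The ratios, their alternatives, the choroid plexus sets and the alternatives for nuclear subunits were chosen after seeing the values.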

Additional observations from a re-analysis of the deposited data

How the results depend on the processing

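Limma called 0 genes with all 6 libraries in each of the 10 alternatives, among them pseudocounts of 0.1 and 0.5, no minimum and a minimum of 5 TPM, and the replicate block (smallest adjusted p 0.980). Leaving out CerM 3 gave 8 called genes and leaving out any other library gave 1, none of them among the tested mt- rows and copies. The 19 tested mt- rows and copies gave 298 log2 fold changes over the 16 alternative settings, of which 0 were called, with adjusted p from 0.763 to 1. With all libraries kept, 8 of 184 log2 fold changes changed sign. These were Gm10925 (−0.059) and mt-Cytb (−0.029) with quantile scaling, Gm28438 (−0.012), Gm28661 (−0.0067) and mt-Cytb (−0.0084) with median-ratio scaling, mt-Co1 (0.0026) with TPM over nuclear genes, and mt-Co2 (0.025) and mt-Nd3 (0.0026) with copies summed.

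With each library left out in turn, 16 of 19 log2 fold changes changed sign at least once. Their ranges were −0.086 to 0.046 for Gm10222, −0.10 to 0.29 for Gm10925, −0.085 to 0.099 for Gm28438, −0.068 to 0.21 for Gm28661, −0.59 to 0.75 for Gm29216, −0.12 to 0.11 for mt-Co1, −0.11 to 0.24 for mt-Cytb, −0.027 to 0.30 for mt-Nd1, −0.12 to 0.041 for mt-Nd2, −0.50 to 0.027 for mt-Nd3, −0.19 to 0.15 for mt-Nd4, −0.51 to 0.21 for mt-Nd4l, −0.17 to 0.0081 for mt-Nd5, −0.22 to 0.062 for mt-Nd6, −0.41 to 0.011 for mt-Rnr1 and −0.36 to 0.045 for mt-Rnr2. The other 3 ran from 0.074 to 0.48 for mt-Atp8, −0.52 to −0.087 for mt-Co2 and 0.089 to 0.19 for Gm28437. The share of TPM from the 13 mRNA rows (difference 0.92 percentage points) ran from −0.22 to 2.53, that with copies from −0.12 to 3.40 and that of the rRNAs from −0.24 to 0.026. The ratio of rRNA to mRNA ran from −1.19 to 0.046 percentage points, mt-Nd4l to mt-Nd4 from −0.11 to 0.16 and mt-Nd6 to mt-Nd5 from −0.037 to 0.038. The 3 shares kept their direction against nuclear TPM alone, and the share with copies did so with a looser copy rule (90% identity over 50%). Libraries share only a replicate number: deviations of same-numbered libraries correlated across genes at 0.01, 0.20 and 0.22 for numbers 1 to 3. With the replicate block the limma fit called 0 of 14916 genes and the share with copies differed by 1.21 percentage points (exact sign-flip permutation p = 0.75). Unknown read depth leaves the counting error of the low mt-Co3 row and of the rows at 0 unmeasured.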
